A study of Rattus norvegicus with 14 samples.

Results

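The genes described here code for the heterogeneous nuclear ribonucleoproteins (hnRNPs) and the SR proteins, the main families of RNA-binding proteins that steer the splicing of pre-mRNA. They were taken from the array by symbol, as genes named Hnrn followed by further letters, Srsf with a number, or the older Sfrs with a number. The rule found 29 genes, 18 hnRNP and 11 SR genes, of 19776 genes named on the array, and no gene under an Sfrs name. They were measured by 41 array probes, of which 39 were well above background on every array. Srsf12, a minor SR gene with a single probe, was well above background on 0 of 14 arrays and was not tested, which left 40 probes of 28 genes, 27 for hnRNP and 13 for SR genes.

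The samples were plantaris, a fast-twitch calf muscle, of Wistar rats on 1 of 3 feeding regimes. The 4 control rats received vitamin D in the feed at 1000 IU/kg. The 6 depletion rats received feed from which vitamin D was depleted, and the 4 repletion rats first received such feed and then feed with vitamin D added back. Age, sex, duration of feeding and the doses in the other feeds are not stated in the labels. Each muscle had an array of its own (Agilent, 1 colour), and the arrays sat on 5 slides that each held 2 or 3 of the diets. Titles number the muscles as biological replicates. For depletion replicate 1, title and diet field disagree, the latter naming the repletion feed. It was kept under its title, and the counts of member probes in each comparison are also given with it left out or moved to repletion. For those counts at an unadjusted p, the share of all tested probes was not worked out.

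SR proteins bind exonic enhancers through RNA recognition motifs and recruit the spliceosome through a tail of alternating arginine and serine, the RS domain, which kinases phosphorylate. hnRNPs coat nascent transcripts, and many of them oppose SR proteins at exonic and intronic silencers, so that the balance between both families helps to set which exons are kept. hnRNPC has also been described as a protein that binds the vitamin D response element. The arrays report how much transcript each probe detects, not which exons were spliced.

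The probes are 60 bases long, and each is named here by its gene and by its start on the transcript, as in Hnrnpa1 probe 328. Below, 3 SR probes are shown because they code for stretches of alternating arginine and serine. Capitals mark codon pairs for arginine and serine, in either order, in an open reading frame of the probe.
Srsf2 probe 751: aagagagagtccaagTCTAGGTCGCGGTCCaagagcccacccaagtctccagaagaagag
Srsf7 probe 748: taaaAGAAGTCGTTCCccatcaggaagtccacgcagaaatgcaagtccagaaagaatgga
Srsf10 probe 478: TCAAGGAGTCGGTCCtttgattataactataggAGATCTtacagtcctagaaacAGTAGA
The Srsf10 probe held 6 such pairs, the Srsf2 probe 4 and the Srsf7 probe 3. At least 3 pairs were found in 3 of the 14 SR probes, in 0 of the 27 hnRNP probes and in 211 of the other 30326 probes of the array. Per the scanner files, on build rn4, the positions given for them are chr10:106955760-106955820, chr6:3098739-3099576 and chr5:154644780-154645170, in the order shown. The spans of the Srsf7 and Srsf10 probes are longer than 60 bases, as for a probe whose sequence is split by an intron.

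Some probes also share sequence with other probes of the array, which matters where transcripts are near-identical copies. A run of at least 20 identical bases linked 7 of the 41 member probes to another probe. The longest run, 56 bases on the opposite strand, lay between Hnrnpab probe 1129 and a probe named Phykpl. Whether either probe also detects the transcript of the other was not tested. Hnrnpa3 probe 1433 shared 42 bases, Hnrnpl probe 1972 shared 32 and Hnrnpa1 probe 1610 shared 24 with probes that carry no gene name. These runs lay on the same strand, so signal from transcripts that hold them may not be separable.

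Levels are given in log2 units above or below the 75th percentile of the array, so 75% of spots lie below 0 and 1 unit is a doubling. Differences are log2 differences ± SE from limma's moderated fit with slide as a block, with p-values adjusted by Benjamini-Hochberg over all 26391 tested probes. Muscle identity was clear from 10 of 10 fibre markers, whose linear levels summed to between 1845 and 2422 on the 14 arrays. The slide was a large source of spread on the arrays as a whole: at adjusted p under 0.05, 28% of all tested probes differed between slides in limma's F test, against 1 of 40 member probes (2.5%), Hnrnpa3 probe 558. Among the 10950 probes with a mean level of -2 or more the share was 7.12%, and among the 34 member probes in that range it was 0%.

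Depletion replicate 1 stood apart from the other arrays. It gave the highest or the lowest of the 14 readings at 25 of 40 member probes (62.5%), where the other 13 arrays did so at 1 to 10 of 40. Over all tested probes it did so at 34.0%, and the others at 6.35% to 20.6%. It was the highest at 19 probes and the lowest at 6. On that array 52.5% of member probes were over 0.3 log2 from the 14-array median, and on each of the others 0% to 12.8%, while over all tested probes the shares were 52.4% and 24.2% to 46.7%. Among probes with a mean level of -2 or more the array deviated at 52.9% of member and 47.0% of all probes, where the others deviated at 0% to 9.09% of member and 11.7% to 25.0% of all probes. The array thus stood apart at all probes, not at splicing factors alone. On the same array the summed linear level of 8 macrophage markers was 49.2, against 15.1 to 42.0 on the other depletion arrays, and that of the 3 tested erythroid markers was 86.4 against 21.0 to 44.6 (Hba1 and Hba2 were not tested). The satellite cell sum was 6.54, against 9.78 to 20.4. The difference between 3′ and 5′ probes of a transcript is a sign of RNA quality. It was taken relative to each transcript's median over the 14 arrays. Its median on that array was 0.02, inside the range of the other arrays (-0.22 to 0.09). Such values compare arrays with each other and do not give RNA quality as such. The part of these cells in the readings of that array was not tested.

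The member probes were steady between arrays of a diet. Their pooled SD within a diet had a median of 0.172 log2, where that of all tested probes was 0.341. Among probes with a mean level of -2 or more the medians were 0.170 and 0.208, so most of the gap went with level. The range over 14 arrays ran from 0.39 for Srsf7 to 1.93 for Hnrnpa3 probe 558.

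**Figure D1:**
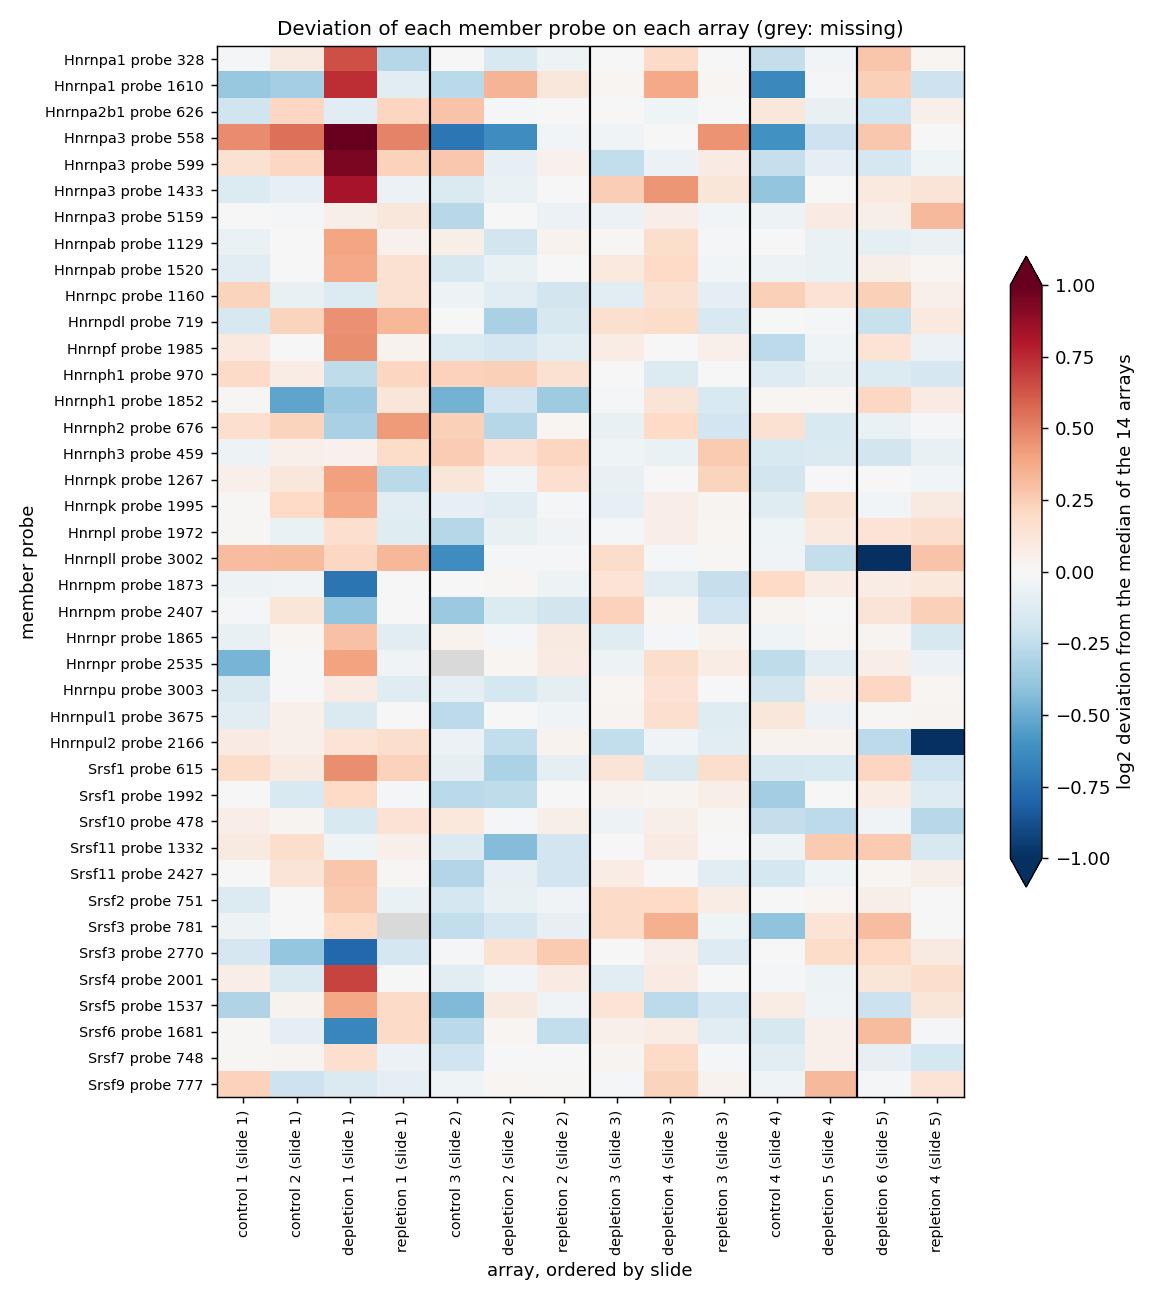
Deviation of each tested member probe (rows) from its median over the 14 arrays (columns, ordered by slide with black lines between slides), in log2 units from blue (lower) to red (higher), with grey for missing readings. Depletion replicate 1 is the column with the strongest colours, with 21 of 40 probes over 0.3 from the median.

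**Figure D2:**
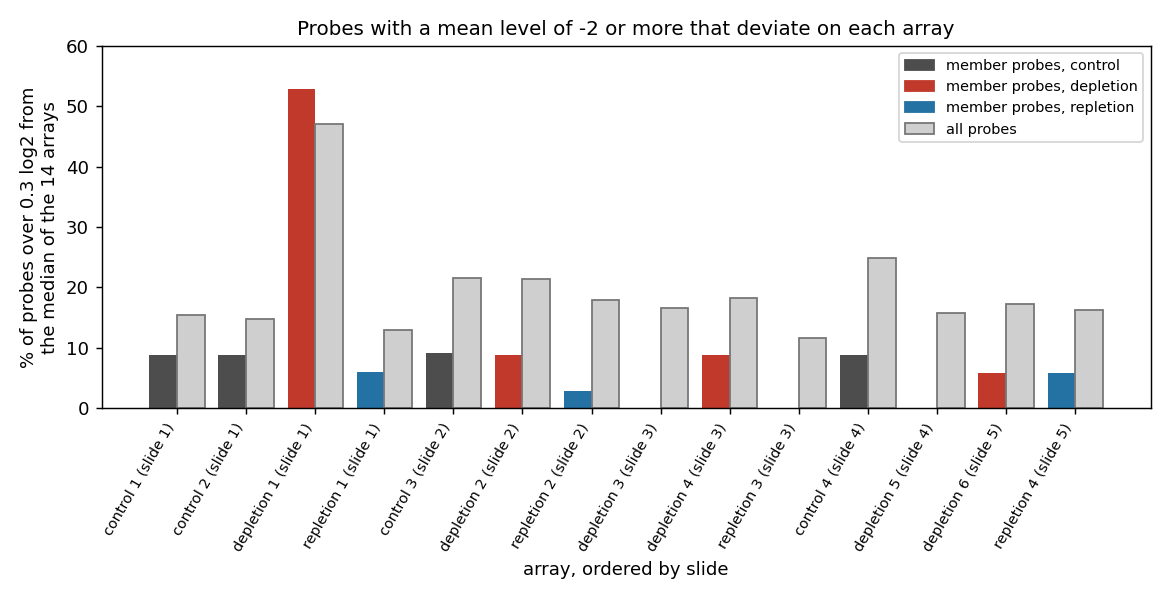
Percentage of probes that lie over 0.3 log2 from the 14-array median on each array, for the 34 member probes with a mean level of -2 or more (coloured by diet) and for all 10950 probes in that range (grey). Depletion replicate 1 reaches 52.9% of member probes and 47.0% of all probes, while no other array exceeds 9.09% of member probes.

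Depletion against control asks which of these genes differed in muscle after feeding without vitamin D. None of the 40 member probes passed an adjusted p of 0.05 (the lowest was 0.832), and neither did any other probe, a background of 0%. At an unadjusted p under 0.05, 3 member probes were higher in depletion (7.5%, against 2.14% of all tested probes) and 0 were lower (against 2.69%). The 3 were single probes of Hnrnpa1, Hnrnpa3 and Srsf3. Of the 40 differences 29 were above 0, with a median of 0.11, where 45.3% of all tested probes were above 0 with a median of -0.02. Without depletion replicate 1 the counts were 2 at an unadjusted p under 0.05 and 28 above 0, with a median of 0.08. With that array counted as repletion they were 2 and 31, with a median of 0.11. Within the slides that held both diets, the median member difference was 0.20 on slide 1, 0.02 on slide 2 and 0.09 on slide 4. The summed macrophage markers ranged from 13.2 to 28.8 in control, from 15.1 to 49.2 in depletion and from 26.9 to 32.1 in repletion. The summed Schwann cell and myelin markers ranged from 2.92 to 5.56 in control, from 2.87 to 3.85 in depletion and from 3.61 to 30.7 in repletion. The part of either in these and the following differences was not tested. Fewer cells of a type and less RNA per cell cannot be told apart in such whole-muscle samples.

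The difference with the smallest p was at the far 3′ probe of Hnrnpa1, which codes for an abundant shuttling hnRNP that often silences exons. Hnrnpa1 probe 1610 (rn4 chr7:142154440-142154490) read 1.72, 1.76, 1.83 and 1.45 on the 4 control arrays. On the 6 depletion arrays it ranged from 2.08 to 2.84 with a median of 2.39, and on the 4 repletion arrays it read 1.98, 2.21, 2.12 and 1.89. Every depletion and every repletion array thus lay above every control array, while depletion and repletion overlapped. The difference between depletion and control was 0.76 ± 0.14, a 1.69-fold change (adjusted p = 0.832, higher in 6 of 6 arrays). Within the slides that held both diets the difference was 1.1 on slide 1, 0.61 on slide 2 and 0.63 on slide 4. Without depletion replicate 1 it was 0.60 (adjusted p = 1.00), and with that array counted as repletion it was 0.74.

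The 5′ probe of the same gene gave another reading. Hnrnpa1 probe 328 read -1.64, -1.54, -1.62 and -1.86 in control, ranged from -1.78 to -0.98 with a median of -1.53 in depletion, and read -1.91, -1.67, -1.62 and -1.61 in repletion. The groups overlapped, and the highest reading was that of depletion replicate 1. Its difference between depletion and control was 0.19 ± 0.16, and it was -0.01 without depletion replicate 1. The 3′ reading minus the 5′ reading was 3.30 to 3.45 in control, 3.68 to 4.22 in depletion and 3.50 to 3.89 in repletion, so that this contrast between probes, singled out after its values were seen and not tested, separated control from both other diets. Of the 10 member genes with such a contrast, 1 did so. The share over all genes of the array with such a contrast was not worked out, so this count has no background beside it. The median 3′ minus 5′ difference over 1847 transcripts, relative to each transcript's median over all arrays, also varied. It was -0.22 to 0.015 on control, -0.03 to 0.09 on depletion and -0.10 to 0.04 on repletion arrays. Its part in the Hnrnpa1 contrast was not tested.

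The unnamed probe that shares 24 bases with Hnrnpa1 probe 1610 gave a similar difference between depletion and control, 0.70 ± 0.15 (adjusted p = 0.832). It was found by its sequence, but it is shown because Hnrnpa1 probe 1610 had the smallest p. The probes share bases and were read on the same arrays, so their likeness is not separate evidence. The probe that shares 22 bases with Hnrnpa1 probe 328 differed by 0.29 ± 0.14. Whether these probes detect Hnrnpa1 itself or transcripts like it was not tested. Probes sharing bases with Hnrnpa3 probe 599, Hnrnpl probe 1972 and Hnrnpm probe 1873 differed by 0.17 ± 0.20, 0.10 ± 0.09 and -0.17 ± 0.19. The Phykpl probe, on the strand opposite to Hnrnpab probe 1129, differed by -0.05 ± 0.13.

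Hnrnpa3, a close relative of Hnrnpa1, was covered by 4 probes. Probes 558 and 599 are annotated to another transcript record of the gene than probes 1433 and 5159, so their starts refer to different records. Hnrnpa3 probe 1433 read 2.65, 2.71, 2.64 and 2.39 in control, from 2.72 to 3.61 with a median of 2.96 in depletion, and 2.73, 2.79, 2.91 and 2.92 in repletion. Depletion and repletion arrays all lay above the control arrays, some by a small margin (the highest control array read 2.71). The difference between depletion and control was 0.45 ± 0.16 (adjusted p = 0.832), and 0.22 without depletion replicate 1, which held the highest reading. Within slides it was 0.93, 0.08 and 0.40 on slides 1, 2 and 4. The unnamed probe that shares 42 bases with it differed by 0.38 ± 0.18.

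The other Hnrnpa3 probes did not give 1 answer. Probe 558 differed by 0.35 ± 0.20, probe 599 by 0.14 ± 0.19 and probe 5159 by 0.13 ± 0.10. These differences were 0.15, -0.12 and 0.15 without depletion replicate 1. Probe 558 was the dimmer kind of reading, with single arrays from -5.99 to -4.06, and it was the member probe that differed between slides (adjusted p = 0.0113). Probe 5159 stayed within 0.98 and 1.57 on all 14 arrays. Hnrnpa1 probe 1610 and Hnrnpa3 probe 1433 were the 2 member probes (5%) whose depletion and control arrays did not overlap, against 0.86% of all tested probes.

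Among the other hnRNP genes, Hnrnpab, which codes for a CArG-binding hnRNP, had the brightest member probe. Hnrnpab probe 1520 ranged from 5.06 to 5.22 in control, from 5.15 to 5.60 in depletion and from 5.19 to 5.37 in repletion, and the difference between depletion and control was 0.21 ± 0.11, or 0.13 without depletion replicate 1. Hnrnpr, which codes for a nuclear hnRNP closely related to Syncrip, showed 0.35 ± 0.16 at probe 2535, from a fit without control replicate 3, where the spot was marked as an outlier. Without depletion replicate 1 it was 0.18, and without control replicate 1 it was 0.20. The other probes of these genes gave smaller differences, 0.08 ± 0.13 at Hnrnpab probe 1129 and 0.10 ± 0.11 at Hnrnpr probe 1865. Depletion and control overlapped at all of these probes.

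Other hnRNP genes gave differences near or below the median over the members. Hnrnpc probe 1160 averaged 1.68 ± 0.17 (SD, n = 4) in control, 1.63 ± 0.17 (SD, n = 6) in depletion and 1.58 ± 0.15 (SD, n = 4) in repletion, and depletion minus control was -0.07 ± 0.12. Hnrnpk, which binds poly(C) tracts, averaged 0.58 ± 0.14 in control and 0.60 ± 0.18 in depletion at probe 1267 (difference 0.04 ± 0.15), and probe 1995 differed by 0.11 ± 0.13. Hnrnpu, a nuclear scaffold-associated hnRNP, averaged 1.66 ± 0.08 in control and 1.82 ± 0.13 in depletion (difference 0.11 ± 0.10). When depletion replicate 1 was left out, the differences were 0.015 for Hnrnpc, -0.13 and -0.00083 for Hnrnpk probes 1267 and 1995, and 0.085 for Hnrnpu. Hnrnpd is on the array only under its older symbol Hnrpd, outside the rule, and differed by 0.05 ± 0.12.

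The lowest of the 40 differences was that of Hnrnph2, an hnRNP of the G-run-binding F/H group. Probe 676, named after its values were seen, read -0.84, -0.78, -0.77 and -0.85 in control and from -1.33 to -0.80 with a median of -1.12 in depletion, a difference of -0.32 ± 0.16. Of its relatives, Hnrnpf, Hnrnph1 and Hnrnph3 had differences from -0.10 to 0.19. Over the whole family, 19 of 27 hnRNP probes were above 0 in depletion against control, with a median of 0.11 and a range from -0.32 to 0.76.

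Of the SR genes, Srsf3, which codes for the smallest SR protein and also serves in mRNA export, had the smallest p. Srsf3 probe 781 read 0.10, 0.15, -0.10 and -0.26 in control, from -0.02 to 0.50 with a median of 0.34 in depletion, and 0.07, 0.10 and 0.15 on the 3 repletion arrays with a reading (the spot of repletion replicate 1 was marked as an outlier). The groups overlapped through depletion replicate 2, which read -0.02. The difference between depletion and control was 0.31 ± 0.13 (adjusted p = 0.832), and 0.36 without depletion replicate 1. Srsf3 probe 2770, the mean of 8 to 10 spots per array at the far 3′ end, differed by -0.01 ± 0.16, with depletion replicate 1 as the lowest array at -2.18, and by 0.21 without that array.

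**Figure D3:**
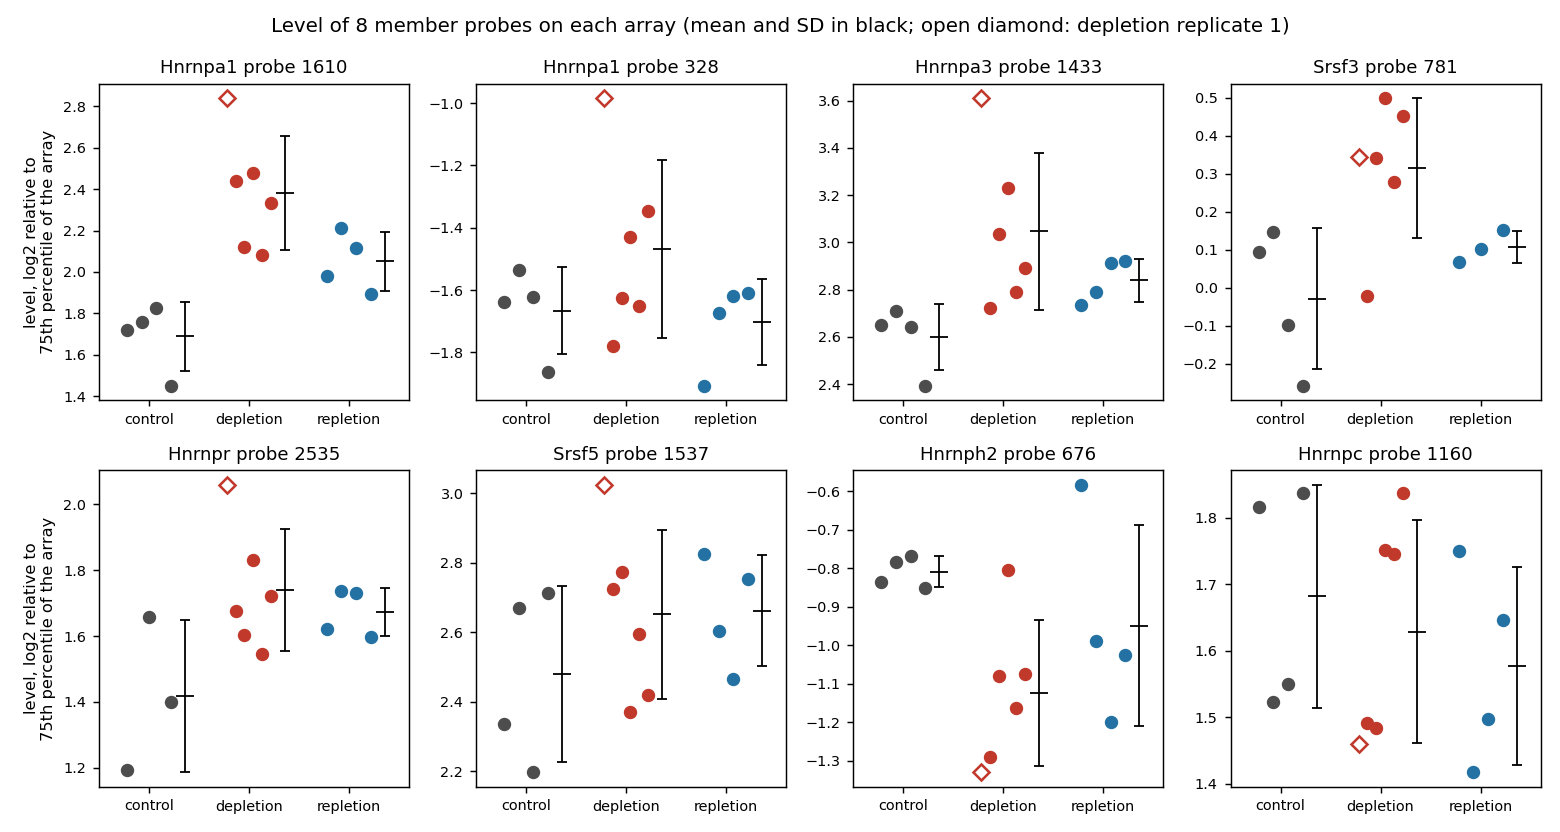
Level of 8 member probes on each array, in log2 units relative to the array's 75th percentile, with a point per array, black bars for mean and SD of the group, and an open diamond for depletion replicate 1. Each panel has its own axis. In the panel of Hnrnpa1 probe 1610 all depletion and repletion points lie above the highest control point, 1.83, while in that of Hnrnpc probe 1160 the 3 groups overlap.

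Srsf1, the classic splicing enhancer factor, differed between depletion and control by 0.22 ± 0.11 at probe 1992 and by 0.08 ± 0.14 at probe 615, which was -0.020 without depletion replicate 1. Srsf5, first described as a gene induced in regenerating liver, differed by 0.30 ± 0.16. The probes with arginine and serine pairs shown above differed by 0.16 ± 0.10 for Srsf2, by 0.16 ± 0.09 for Srsf7 and by -0.07 ± 0.10 for Srsf10, which held the most pairs. The difference of Srsf2 was 0.079 without depletion replicate 1. Control arrays of Srsf2 read -0.63 to -0.46 and depletion arrays -0.54 to -0.20. Over all arrays Srsf7 had the smallest range of the member probes, with 0.39 between its lowest and highest array. Without depletion replicate 1 its range was the same, but others were smaller, such as 0.25 at Hnrnpr probe 1865. Over the SR genes, 10 of 13 probes were above 0, with a median of 0.16 and a range from -0.07 to 0.31.

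**Figure D4:**
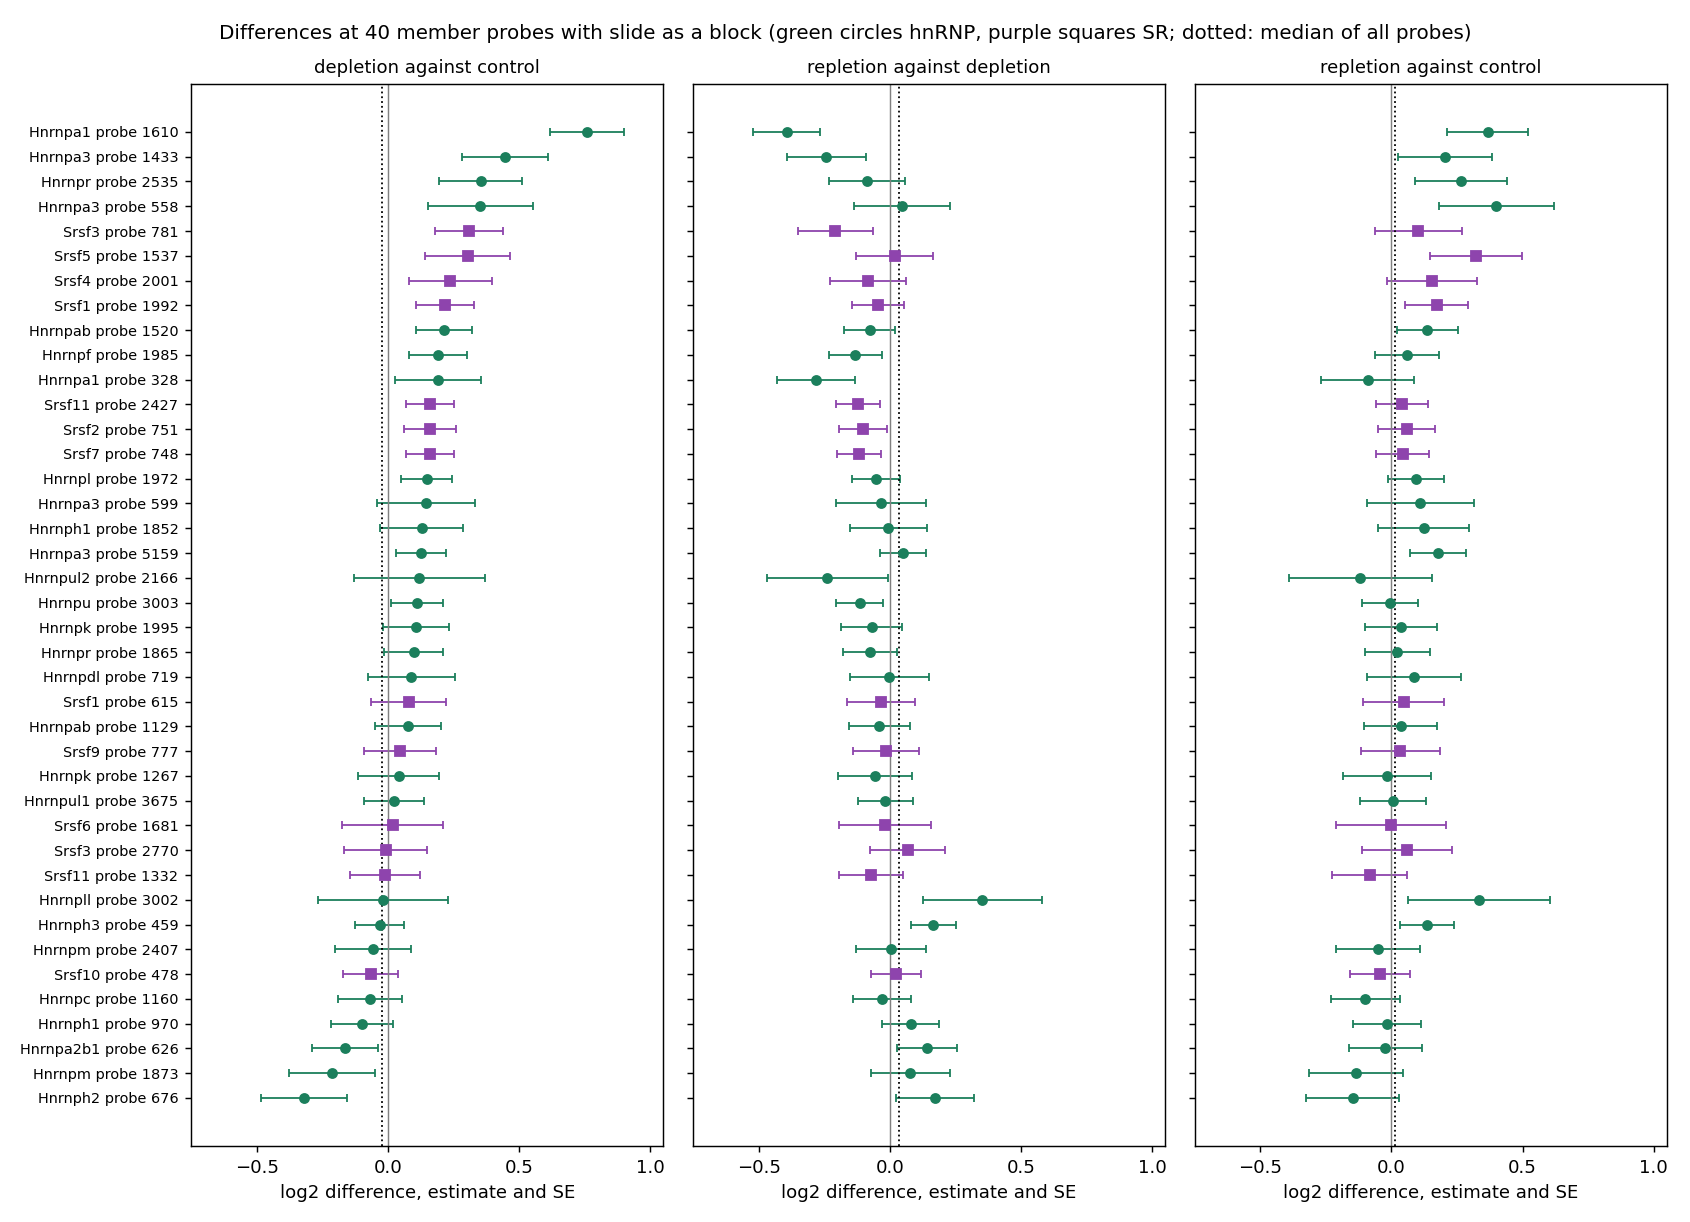
Log2 difference ± SE of each of the 40 tested member probes in the 3 comparisons, ordered by depletion against control, with green circles for hnRNP and purple squares for SR genes and a dotted line for the median of all tested probes. In depletion against control 29 of 40 points lie above 0, and Hnrnpa1 probe 1610 lies farthest out at 0.76.

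Repletion against depletion asks how muscle differed once vitamin D was given back. Again 0 of 40 member probes and 0% of all probes passed an adjusted p of 0.05 (the lowest was 0.933). At an unadjusted p under 0.05, 0 member probes were higher (against 2.51% of all) and 1 was lower (2.5%, against 0.966%), and 0 had groups that did not overlap (against 0.315%). Of the 40 differences 12 were above 0, with a median of -0.04, where 58.9% of all probes were above 0 with a median of 0.04. This comparison shares the depletion arrays with the former, so opposite signs are not separate evidence. Without depletion replicate 1 the counts were 2 and 13, with a median of -0.02. With that array counted as repletion they were 0 and 17. Within slides the median member difference was -0.20 on slide 1, 0.06 on slide 2, -0.08 on slide 3 and -0.03 on slide 5.

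The probe with the smallest p was again Hnrnpa1 probe 1610, lower in repletion by 0.39 on the log2 scale (-0.39 ± 0.13, adjusted p = 0.933). Within slides the difference was -0.86 on slide 1, -0.23 on slide 2, -0.18 on slide 3 and -0.44 on slide 5, and it was -0.29 without depletion replicate 1 and -0.21 with that array counted as repletion. Hnrnpa1 probe 328 differed by -0.28 ± 0.15, by -0.15 without depletion replicate 1 and by -0.14 without repletion replicate 1. Hnrnpa3 probe 1433 differed by -0.24 ± 0.15, and by -0.10 and -0.13 without those arrays. Hnrnpa3 probes 558, 599 and 5159 differed by 0.05 ± 0.18, -0.03 ± 0.17 and 0.05 ± 0.09.

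Of the 5 probes with the smallest p, those of Hnrnph3 and Hnrnpll were higher in repletion. Hnrnph3 probe 459 averaged -0.08 ± 0.15 (SD, n = 4) in repletion and -0.27 ± 0.12 (SD, n = 6) in depletion, a difference of 0.17 ± 0.09. Hnrnpll, an hnRNP known for its part in lymphocyte splicing, differed by 0.35 ± 0.23 at a dim probe, and the 2 tested lymphocyte markers of 5 (Cd3e, Cd79a and Ms4a1 were not tested) summed to 0.416 to 0.864 over all arrays. Its lowest array was depletion replicate 6 at -6.97, and the difference was 0.05 without that array. Leaving out repletion replicate 4 also gave 0.05. It is the only other array of slide 5, so with slide as a block this is not a separate check. Srsf3 probe 781, next in order, differed by -0.21 ± 0.14.

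Repletion against control asks whether any difference was left after vitamin D was restored. Again 0% of all probes and 0 of 40 member probes passed (the lowest adjusted p was 1.00). At an unadjusted p under 0.05, 1 member probe was higher (2.5%, against 1.3% of all) and 0 were lower (against 0.69%), and 27 of 40 differences were above 0 with a median of 0.04, where 53.5% of all tested probes were above 0 with a median of 0.01. With the authors' values 21 of 40 were above 0, with a median of 0.0071. Within slides 1 and 2 the median member difference was 0.05 and 0.07. Without depletion replicate 1 the counts were 1 and 27, and with that array counted as repletion 2 and 28. Hnrnpa1 probe 1610 was higher by 0.37 ± 0.15 (adjusted p = 1.00, higher in 4 of 4 arrays), and by 0.24 and 0.39 within slides 1 and 2. Hnrnpa1 probe 328 differed by -0.09 ± 0.18. Next came Srsf5 at 0.32 ± 0.18, Hnrnpa3 probe 558 at 0.40 ± 0.22, Hnrnpa3 probe 5159 at 0.18 ± 0.11 and Hnrnpr probe 2535 at 0.27 ± 0.18. Single arrays moved some of these: Hnrnpa3 probe 558 was 0.70 without repletion replicate 1 and 0.23 without repletion replicate 2. Hnrnpr probe 2535 was 0.09 without control replicate 1, 0.17 without depletion replicate 1 and 0.41 without repletion replicate 1. The same 2 probes of Hnrnpa1 and Hnrnpa3 as above had repletion and control arrays that did not overlap (5%, against 1.16% of all probes). Overlap was judged without regard to slide. At Hnrnpa3 probe 1433 the margin was small, with 2.71 on the highest control and 2.73 on the lowest repletion array. Its difference with slide as a block was 0.20 ± 0.18, and 0.05 and 0.15 within slides 1 and 2. This comparison shares the control arrays with depletion against control, so the return of these 2 probes is not separate evidence.

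Tested over all 3 diets at once, 0 member probes and 0% of all probes passed limma's F test at an adjusted p of 0.05.

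Partners of these proteins were read from lists of related genes. No probe of any list passed an adjusted p of 0.05. The counts stand against 45.3%, 58.9% and 53.5% of all tested probes above 0 in depletion against control, repletion against depletion and repletion against control. Of 10 kinases and phosphatase partners of SR proteins, 7 probes were higher and 3 lower in depletion than in control, and the smallest p belonged to Srpk3, the muscle SR protein kinase (0.23 ± 0.15), and to Ppp1r8 (0.10 ± 0.11). Among 23 probes of other genes with RS domains, 9 were higher and 14 lower, with Tra2b, an SR-like splicing activator, higher by 0.36 ± 0.11 (adjusted p = 0.832) and Acin1 lower (-0.31 ± 0.11). Of 56 probes of core spliceosome genes, 34 were higher and 22 lower, with a median of 0.03, and Cdc5l (-0.19 ± 0.09) and Snrpd1 (0.26 ± 0.13) had the smallest p. Of 41 probes of other splicing regulators, 29 were higher and 12 lower, and 4 of the 41 (9.76%) were higher at an unadjusted p under 0.05, against 2.14% of all tested probes. These included Ewsr1 (0.49 ± 0.16), which codes for an RNA-binding protein. For exon junction and export partners 7 of 10 probes were higher, with Nxf1 at -0.17 ± 0.11 and Tnpo1, the nuclear import receptor of hnRNPA1, at 0.19 ± 0.14. The other lists did not share the count of the 41 splicing regulator probes at an unadjusted p under 0.05. Of the 23 RS-domain probes 1 was higher (4.35%) and 1 lower. Of the kinase and phosphatase, core spliceosome, and exon junction and export probes 0 were higher and 0 lower.

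In repletion against depletion, the same lists gave 3 of 10 kinase and phosphatase probes higher (Clk1 at -0.17 ± 0.10, Srpk2 at -0.19 ± 0.13), 12 of 23 RS-domain probes higher (Acin1 at 0.34 ± 0.10, and Srrm1 at -0.26 ± 0.11), and 29 of 56 spliceosome probes higher (Cdc5l at 0.15 ± 0.08, Snrpd1 at -0.18 ± 0.12). Of other splicing regulators 16 of 41 probes were higher, with Rbm38 at 0.21 ± 0.09 and Sfpq at -0.23 ± 0.12, and of export partners 2 of 10, with Tnpo1 at -0.25 ± 0.13 and Alyref at -0.26 ± 0.14. In repletion against control the counts were 2 of 10, 11 of 23, 37 of 56, 27 of 41 and 5 of 10 in that order. The genes with the smallest p there were Srpk2 and Clk2, Tra2b and Srrm2, Prpf31 and Sf1, Tardbp (0.27 ± 0.12), and Nxf1 and Alyref. The median of all tested probes lay between -0.02 and 0.04 in the 3 comparisons.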

How the data were processed

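Total RNA of 14 plantaris muscles was labelled with Cy3 and hybridised in 1 colour. Per the file headers, the deposited intensity of each spot was extracted with Agilent Feature Extraction 11.5.1.1, with coordinates on rn4. The processed signal is background-subtracted, without scaling between arrays. The authors' deposited series table holds log2 values of 26902 probes, normalized between arrays (the submitters' processing notes name limma, without a version); it served only as an alternative. The deposited sequence, accession and start columns (other, text or positions) described the probes.

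Of 44254 spots per array, 42877 were not controls. Outlier-marked spots were set to missing, no spot was saturated, repeated spots were averaged per probe, and each array's 75th percentile was subtracted on the log2 scale. On each array 82.8% to 88.1% of spots were well above background. Precision is limited by how many arrays there are. Probes well above background on at least 4 arrays, with at least 2 values per group, were tested in 1 fit of 3 diets with slide as a block (limma 3.58.1, R 4.3.3). Accessions of 37 of 41 member probes matched a RefSeq gene table. Figures were drawn with matplotlib 3.10.9. The fit was tested on simulated data. In depletion against control it recovered 12% of 50 planted 1.5-fold changes and 66% of 50 planted 2-fold changes. In repletion against depletion the shares were 18% and 70%. The same simulated arrays also held 50 planted 3-fold and 50 planted 4-fold changes, and 8 and 6 other probes were called falsely. Such larger changes loosen the adjusted threshold, and no simulated array stood apart as depletion replicate 1 did. The shares may thus be too high for the real arrays. An absence of calls thus does not mean an absence of changes of that size.

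The members and lists were chosen with earlier results of these data known. Named with values were, per comparison, the 5 member probes of smallest p, all probes of their genes where these disagreed in sign or by over 0.3 log2, and Hnrnpa1, Hnrnpc, Hnrnpd, Hnrnpk, Hnrnpu, Srsf1, Srsf2, Srsf3, Srsf5 and Srsf7, with differences for the latter in depletion against control, and 2 genes per related list, of which some are not reported here. Also given, outside this rule, are the other probes of Hnrnpab and Hnrnpr in depletion against control. Alternatives were normexp (offset 50), quantile and median scaling, the authors' values, other filters, outlier-marked spots kept, no or random slide block, a replicate block, array weights, fits of 2 groups, the doubtful array moved, and each array and each slide left out.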

Additional observations from a re-analysis of the deposited data

Results flagged for a closer look

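In groups of 4 to 6 arrays, 9 member readings lay farther from the rest of their group than Dixon's test allows, where chance flags about 1 in 20 groups. Of these, 7 came from depletion replicate 1, which was so marked at 17.5% of member probes and 4.52% of all tested probes. It was the highest depletion array at Hnrnpa3 probe 599 (-1.97), Hnrnpk probe 1267 (0.96), Hnrnpr probe 1865 (0.78) and Srsf4 probe 2001 (1.48), and the lowest at Hnrnpm probe 1873 (-0.84), Srsf3 probe 2770 (-2.18) and Srsf6 probe 1681 (0.50). Srsf4 probe 2001 is the mean of 6 to 10 spots per array, so its reading does not rest on a single spot. The others were Hnrnpll probe 3002, lowest on depletion replicate 6 (-6.97, next -6.07), and Hnrnpul2 probe 2166, lowest on repletion replicate 4 (-2.999, next -1.39). Over 3 groups of arrays, 7.5% of member and 6.31% of all tested sets of readings held such an array. No explanation of these readings was tested.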

How the results depend on the processing

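No probe of the array passed an adjusted p of 0.05 in any diet comparison under the 32 alternatives, and the median over member probes kept its sign in each. It ranged from 0.071 to 0.15, from -0.11 to -0.020 and from 0.0071 to 0.11, with 26 to 32, 9 to 17 and 21 to 31 of 40 above 0, in depletion minus control, repletion minus depletion and repletion minus control. In the last, the median was 0.0071 with the authors' values, 0.013 with quantile scaling, 0.014 with normexp and 0.016 with median scaling. Normexp moved the median of all probes by -0.12 for depletion minus control and by -0.13 for repletion minus control. Member probes at an unadjusted p under 0.05 numbered 3, 1 and 1 in depletion against control, repletion against depletion and repletion against control. In the first they were 5 with the authors' values, 5 without slide block, 7 with a random block, 1 without slide 1 and 5 without slide 4 (2 to 6 without single arrays). In the second they were 4 with the authors' values, 2 with outlier-marked spots kept, 0 with depletion replicate 1 counted as repletion and 2 without slide 3 (0 to 2). In the last they were 0 with normexp, quantile or median scaling, a replicate block, 2 groups alone, or without slide 2, 3 or 5, and 2 with outlier-marked spots kept, the doubtful array moved or slide 4 left out (0 to 3). The share of all tested probes at that threshold was worked out for the main fit only. Counts under the alternatives, the replicate block included, thus have no background beside them. Probes that differed between slides fell from 7400 to 2107 with normexp (6383 to 7419 without single arrays), and member probes from 1 to 0; the latter were 2 with quantile or median scaling and 5 with the authors' values (1 to 2). The cause was not tested.

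Single probes with small differences turned sign. In depletion against control, Srsf3 probe 2770 was 0.10 with array weights, 0.10 with the doubtful array moved, 0.11 without slide block, 0.00244 with quantile scaling, 0.00352 with a replicate block, 0.039 with a random block and 0.22 without slide 1. Hnrnpa3 probe 599 was -0.048 without slide block and -0.14 without slide 1, probe 558 -0.036 with normexp, Srsf1 probe 615 -0.056 with normexp and -0.061 without slide 1, and Hnrnpk probe 1267 -0.041 with the doubtful array moved and -0.010 without slide 4. In repletion against depletion, Hnrnpa3 probe 599 was 0.021 with array weights, 0.21 with the doubtful array moved, 0.028 without slide block and 0.13 without slide 1, probe 558 -0.028 with the authors' values, -0.045 with normexp, -0.11 without slide 2 and -0.13 without slide 3, and probe 5159 -0.010 without slide 5. In repletion against control, Hnrnpa3 probe 558 was -0.081 with normexp and Hnrnpa1 probe 328 was 0.056 with the doubtful array moved.

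With single arrays left out, the differences between depletion and control ranged from -0.015 to 0.30 for Hnrnpa1 probe 328, -0.12 to 0.32 for Hnrnpa3 probe 599, -0.095 to 0.21 for Srsf3 probe 2770, -0.12 to 0.015 for Hnrnpc, -0.13 to 0.13 and -0.00083 to 0.17 for Hnrnpk probes 1267 and 1995, and -0.020 to 0.16 for Srsf1 probe 615. Those between repletion and depletion ranged from -0.010 to 0.086, -0.13 to 0.24 and -0.15 to 0.14 for Hnrnpa3 probes 5159, 558 and 599, and that between repletion and control from -0.18 to 0.12 for Hnrnpa1 probe 328.

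Equal replicate numbers did not pair the arrays: 12 such pairs correlated from -0.490 to 0.717, 8 of them over 0.1, and 4 of 14 arrays correlated best with their own number, against 12 with their own slide. With a replicate block, 2, 1 and 0 member probes reached an unadjusted p under 0.05, and Hnrnpa1 probe 1610 differed by 0.78, -0.42 and 0.36.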
